A study of Mus musculus with 38 samples.

Results

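The genes described are the 7 mouse hemoglobin genes Hba-a1, Hba-a2, Hba-x, Hbb-bs, Hbb-bt, Hbb-y and Hbb-bh1. They were chosen by name after their levels in these libraries had been seen, so their levels are given as a description, without a test. All 7 are listed in the single-cell count table of 20695 genes and in the FPKM tables of 35976 and 37108 genes.

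The study reprogrammed mouse embryonic fibroblasts (MEFs) and asked how BMP4 and SALL4 direct them to pluripotent cells or to cells like primitive endoderm. MEFs came from embryos of male OG2 mice crossed to 129S4/SvJaeJ females, and the factors were delivered by retrovirus, so the cultures are mixed populations and not clones. JGES is Jdp2, Glis1, Esrrb and Sall4, JGE leaves out Sall4, and JGEO and JGESO add Oct4. BMP4+ cells had 10 ng/ml of BMP4 in the same iCD3 medium as BMP4- cells. In other cultures without BMP4, MEFs received SALL4-WT or SALL4-delN12 alone, the latter lacking the N-terminal residues with which SALL4 recruits the NuRD repressor complex. The data used are 23 bulk RNA-seq libraries, 2 single-cell samples of JGES day 7, 9 ATAC-seq peak lists and 4 Cut&Tag peak lists. Every condition has 1 sample. No difference between conditions could therefore be set against the spread between cultures, and no p-value is given. All libraries share the MEF origin and none was a blood culture.

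Hemoglobin carries oxygen as a tetramer of a pair of alpha-like and a pair of beta-like chains, each holding a heme. The genes lie in clusters whose order follows their use in development. Hba-x, Hbb-y and Hbb-bh1 are called the embryonic genes and are used by the primitive red cells of the yolk sac. Hba-a1, Hba-a2, Hbb-bs and Hbb-bt are called the adult genes. Red cells of fetal liver and bone marrow use them, though not those cells alone. GATA1, TAL1 and KLF1 act on both clusters from distal enhancers and promoters, and alpha-like and beta-like chains are normally made together in red cells.

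In mm10 with the GENCODE vM21 gene models, the alpha-like genes lie on the plus strand of chromosome 11. Hba-x (ENSMUSG00000055609) spans chr11:32276400-32278116, Hba-a1 (ENSMUSG00000069919) chr11:32283511-32284465 and Hba-a2 (ENSMUSG00000069917) chr11:32296489-32297298. The beta-like genes lie on the minus strand of chromosome 7, in the order Hbb-y (ENSMUSG00000052187, chr7:103851749-103853216), Hbb-bh1 (ENSMUSG00000052217, chr7:103841637-103843164), Hbb-bs (ENSMUSG00000052305, chr7:103826534-103828096) and Hbb-bt (ENSMUSG00000073940, chr7:103812524-103813996). The promoters are shown because the ATAC-seq and Cut&Tag data bear on them and because they show how alike the adult copies are. RefSeq promoter sequence of GRCm38.p6 was matched for 6 of the 7 genes, all but Hbb-bh1. The 120 bases before the RefSeq start are printed 5′ to 3′ on the gene's strand, from chr11:32283552-32283671 (Hba-a1), chr11:32296372-32296491 (Hba-a2), chr11:32276480-32276599 (Hba-x), chr7:103827929-103828048 (Hbb-bs), chr7:103813924-103814043 (Hbb-bt) and chr7:103853208-103853327 (Hbb-y). Capitals mark the CACCC box, the CCAAT box, the GATA core GATAA and the TATA box core TATAA on either strand. On the other strand the CCAAT box reads ATTGG.
Hba-a1: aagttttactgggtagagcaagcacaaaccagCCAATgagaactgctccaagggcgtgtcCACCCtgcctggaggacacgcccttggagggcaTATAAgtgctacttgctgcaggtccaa
Hba-a2: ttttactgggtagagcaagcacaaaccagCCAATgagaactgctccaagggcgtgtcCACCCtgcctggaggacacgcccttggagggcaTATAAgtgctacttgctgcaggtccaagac
Hba-x: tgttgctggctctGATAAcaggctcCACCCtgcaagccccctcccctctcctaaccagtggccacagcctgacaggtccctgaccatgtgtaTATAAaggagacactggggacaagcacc
Hbb-bs: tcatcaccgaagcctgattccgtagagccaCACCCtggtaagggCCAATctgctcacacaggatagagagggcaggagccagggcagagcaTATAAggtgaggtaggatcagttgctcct
Hbb-bt: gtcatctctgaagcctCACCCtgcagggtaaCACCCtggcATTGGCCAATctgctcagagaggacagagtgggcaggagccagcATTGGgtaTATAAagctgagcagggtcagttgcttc
Hbb-y: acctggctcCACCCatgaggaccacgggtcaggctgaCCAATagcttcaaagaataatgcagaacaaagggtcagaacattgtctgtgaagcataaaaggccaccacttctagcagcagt

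CACCC, the letters that KLF1 reads, stands in 6 of these 6 windows, against 31.3% of 27025 RefSeq promoter windows of the same length. CCAAT stands in 5 of 6 (22.1% of all), missing from Hba-x, and TATAA in 5 of 6 (12.4% of all), missing from Hbb-y. GATAA, the core that GATA factors read, stands in that of Hba-x alone (10.7% of all). A match of letters is a description and not a measured binding site.

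The adult copies can hardly be told apart by reads. The coding sequences of Hba-a1 and Hba-a2 differ at 1 of 429 bases, the 74 aligned bases after the stop codon are identical, and the aligned promoter bases above are 100% identical. Hbb-bs and Hbb-bt differ at 1 of 444 coding bases, but their aligned bases after the stop codon are 74.2% identical. Hba-x shares 76.6% of aligned coding bases with Hba-a1, and Hbb-y shares 80.2% with Hbb-bh1, so reads of the embryonic genes are distinct. The split of reads between Hba-a1 and Hba-a2 depends on how the authors' tools assigned shared reads and is uncertain. The sum of both does not depend on the split, but it is too low if shared reads were dropped. The paper does not state whether they were, so alpha-like totals and shares of alpha hold that limit.

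In bulk RNA-seq, the values are FPKM (fragments scaled to transcript length and to mapped fragments), a level per length, with an unknown number of reads behind each. Hba-a1 was listed above 0 in 20 of 23 libraries and Hba-a2 in 18, and both reached an FPKM of 1 in 16. The embryonic genes were rarer, Hba-x being above 0 in 7 libraries, Hbb-bh1 in 4 and Hbb-y in 2. The adult beta genes Hbb-bs and Hbb-bt were above 0 only in SALL4-WT day 1, at 0.101 and 0.102. Ribosomal protein genes were above 0 in every library. A low bulk value cannot tell fewer cells of a type from less RNA per cell.

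The highest adult alpha-globin levels of the series were in the SALL4-delN12 libraries. With SALL4-delN12, Hba-a1 was at 3.23 FPKM on day 1, 101.6 on day 5, 162.0 on day 9 and 88.6 on day 11. Hba-a2 was at 3.21, 104.6, 170.6 and 95.5 on the same days. The 3 later libraries are high for both genes, with a peak on day 9. With SALL4-WT, Hba-a1 was at 0, 0.598, 3.76 and 26.5 FPKM on days 1, 5, 9 and 11. Hba-a2 was at 0, 0.356, 2.99 and 14.2. The SALL4-WT libraries thus climb with time for both genes, and the highest of them lies below the day 5 library of SALL4-delN12.

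Hba-x, the embryonic alpha gene, had the opposite order. With SALL4-WT it was listed at 0 on days 1 and 5, at 1.49 FPKM on day 9 and at 11.8 on day 11. With SALL4-delN12 it was at 0, 0, 0.341 and 0.188. Its late SALL4-WT libraries are high and all SALL4-delN12 libraries are under 1. Hbb-bh1, an embryonic beta gene, was at 0, 0, 0.431 and 3.68 FPKM with SALL4-WT and at 0 in all 4 SALL4-delN12 libraries. Hbb-y, the other one, reached only 0.0930 (SALL4-WT day 11) and 0.0828 (SALL4-delN12 day 9). Hba-x made up 22.5% of the summed alpha FPKM on day 11 with SALL4-WT and 0.102% with SALL4-delN12.

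**Figure D1:**
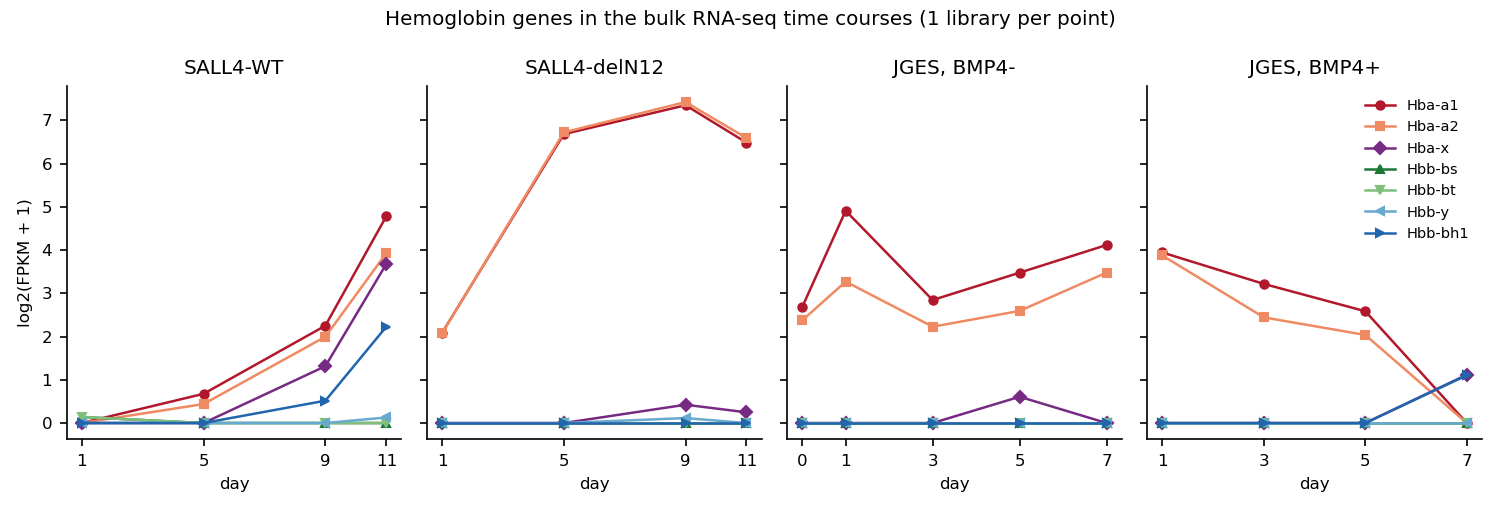
Levels of the 7 hemoglobin genes as log2(FPKM + 1) against day in the 4 bulk RNA-seq time courses, 1 library per point and therefore no error bars. Hba-a1 and Hba-a2 lie highest in SALL4-delN12 on days 5 to 11. Hba-x and Hbb-bh1 reach 1 FPKM only in late SALL4-WT and in JGES BMP4+ day 7, and Hbb-bs, Hbb-bt and Hbb-y stay near 0.

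As differences of log2(FPKM + 1), SALL4-delN12 minus SALL4-WT, Hba-a1 was at 2.08, 6.00, 5.10 and 1.71 on days 1, 5, 9 and 11, and Hba-a2 at 2.07, 6.28, 5.43 and 2.67. These differences share no library with each other. A gene was counted as past the fold limit when this difference was at least 1, which takes at least 1 FPKM in either library. Hemoglobin genes are counted of all 7, including those at 0, while the shares of genes given beside them are of the genes with at least 1 FPKM in either library (12794 to 15347 genes, by comparison). On each of the 4 days, 2 of 7 hemoglobin genes were higher past this limit, Hba-a1 and Hba-a2, while of these genes 4.18% (day 1), 4.67% (day 5), 6.09% (day 9) and 6.55% (day 11) were. The lower direction held 2 hemoglobin genes on day 11, with Hba-x at -3.43 and Hbb-bh1 at -2.23, and 0 on the other days, against 5.63%, 5.19%, 5.75% and 6.58% of these genes on days 1, 5, 9 and 11. On day 9 the differences of Hba-x (-0.89) and Hbb-bh1 (-0.52) had the same sign without passing the limit.

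Genes of the red cell program were read in the same libraries. Of 14 erythroid transcription factors, of which 6 reached 1 FPKM in either library, 2, 1, 1 and 1 were higher past the limit on days 1, 5, 9 and 11 and 0 were lower, and their summed level was 87.1 to 99.8 FPKM with SALL4-delN12 and 64.7 to 81.7 with SALL4-WT. Of 18 genes of heme synthesis and iron, nearly all of them over 1 FPKM, 1 was higher (day 11) and 1 or 2 were lower on each day. Of 19 listed genes of the red cell membrane and other red cell products, 1 was higher on day 5 and 0 on the other days. Gata1, the master regulator of red cells, was at most 0.0803 FPKM in SALL4-delN12, and Klf1, an activator of globin genes, was between 0.0355 and 0.221. Alas2, the red cell enzyme that starts heme synthesis, was between 0.0856 and 1.22. Hemgn and Rhag, also made by red cells, were listed at 0 in all 4. Leaving aside Car2, which many cells make, the red cell markers summed to 0.331 to 1.63 FPKM with SALL4-delN12 and 0.533 to 2.50 with SALL4-WT. Those ranges overlap, although day by day the marker sum was lower with SALL4-delN12. The sum of the adult alpha genes does not overlap from day 5 on.

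Markers of other cell types moved with the SALL4 forms. The 10 macrophage markers summed to 236.2 FPKM on day 1, 263.9 on day 5, 257.6 on day 9 and 518.3 on day 11 with SALL4-delN12, and to 183.4, 53.5, 41.5 and 38.0 with SALL4-WT. All 10 were above 0 in every SALL4 library. C1qa was between 45.8 and 116.2 with SALL4-delN12 against 2.43 to 16.1 with SALL4-WT. On day 1, Adgre1, Cd14 and Fcer1g went the other way, while the remaining markers were higher with SALL4-delN12. These were at 7.78, 18.5 and 24.7 with SALL4-delN12 (Adgre1, Cd14, Fcer1g) against 16.9, 40.7 and 36.3 with SALL4-WT. The 6 placenta markers summed to 168.2 to 214.1 against 12.8 to 49.8. Their medians overlapped, at 1.01 to 8.63 against 0.800 to 3.49, so the sums are carried by few of them. The 6 primitive endoderm markers were at 11.1, 15.4, 60.3 and 171.2 on days 1, 5, 9 and 11 with SALL4-delN12 and at 14.7, 12.1, 15.6 and 19.4 with SALL4-WT, apart on days 9 and 11. Endothelial markers overlapped, at 15.1 to 36.8 against 16.0 to 37.6. The part of these cells in the hemoglobin values was not tested.

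Without BMP4, JGES libraries held adult alpha-globin RNA at every day. Hba-a1 was at 5.41 FPKM on day 0, 29.1 on day 1, 6.18 on day 3, 10.1 on day 5 and 16.4 on day 7. Hba-a2 was at 4.18, 8.65, 3.68, 5.03 and 10.2. Day 1 is the highest library for Hba-a1 and day 7 for Hba-a2, and all 4 beta genes were listed at 0 on all 5 days. Hba-x was at 0.524 on day 5 and at 0 on the other days.

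With BMP4, the adult alpha genes were lower on each later day. Hba-a1 was at 14.4 FPKM on day 1, 8.30 on day 3, 5.001 on day 5 and 0 on day 7. Hba-a2 was at 13.7, 4.44, 3.10 and 0. On day 7, where both adult genes were listed at 0, Hba-x was at 1.17 and Hbb-bh1 at 1.15, the only JGES bulk library with a beta-like gene above 0.

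Before day 7 no difference BMP4+ minus BMP4- of log2(FPKM + 1) passed the limit. Hba-a1 was at -0.97, 0.37 and -0.89 on days 1, 3 and 5 and Hba-a2 at 0.60, 0.22 and -0.56. As a plain ratio of FPKM, Hba-a1 with BMP4 was 0.495 of that without on day 1 and 0.493 on day 5. Of genes with at least 1 FPKM in either library, 3.75% were higher and 5.72% lower on day 1, 6.81% and 8.99% on day 3, and 8.78% and 13.2% on day 5. On day 7 Hba-a1 was at -4.12 and Hba-a2 at -3.48, and Hba-x was at 1.12 and Hbb-bh1 at 1.105. Thus 2 hemoglobin genes were higher and 2 lower on day 7, where 10.3% of those genes were higher and 13.8% lower. The median over genes with at least 1 FPKM in either library was -0.18 on day 5 and -0.14 on day 7. No fold is given on day 7, because each of these 4 genes was listed at 0 in 1 of the libraries.

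On day 7 the sign of the BMP4 difference depended on the factor set. In JGE, Hba-a1 was at 7.77 FPKM without BMP4 and 0.626 with it, and Hba-a2 at 6.82 and 0.249. In JGESO the order was turned, with Hba-a1 at 0.181 without and 5.61 with BMP4, and Hba-a2 at 0 and 3.99. In JGEO, Hba-a1 was at 0 and 0.123, and Hba-a2 at 0 in both. JGE and JGES without BMP4 and JGESO with BMP4 are the high libraries, and in the other 5 libraries of these sets both genes are under 1 FPKM. On the log2 scale, Hba-a1 was at -2.43 in JGE, 0.17 in JGEO and 2.48 in JGESO, and Hba-a2 at -2.65 in JGE and 2.32 in JGESO. Hence 0 hemoglobin genes were higher and 2 lower in JGE (genes with at least 1 FPKM 4.28% and 4.78%), 0 and 0 in JGEO (2.26% and 1.95%), and 2 and 0 in JGESO (5.29% and 3.52%). Of the embryonic genes, only JGESO without BMP4 listed any in these 6 libraries, with Hba-x at 0.337 and Hbb-bh1 at 0.0829. Marker sums of other cell types differed too, given here without and with BMP4. The 8 fibroblast markers were at 80.5 and 705.3 FPKM in JGES, 740.2 and 350.8 in JGE, 442.3 and 271.3 in JGEO, and 499.96 and 875.1 in JGESO. The 6 pluripotent markers were at 799.3 and 29.3, 0.401 and 1.28, 234.5 and 418.5, and 358.6 and 225.8 in the same order. Their part in the hemoglobin values was not tested.

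**Figure D2:**
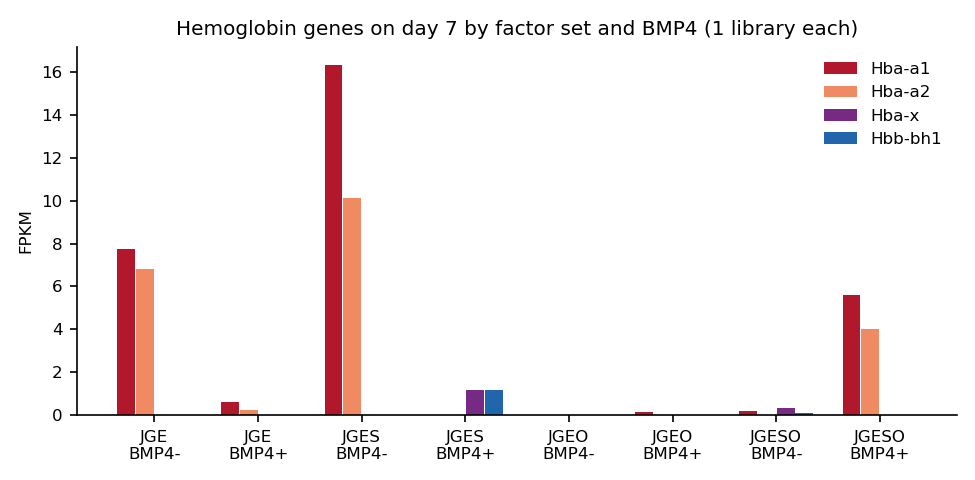
FPKM of Hba-a1, Hba-a2, Hba-x and Hbb-bh1 on day 7, 1 bulk library per bar, by factor set and BMP4 (JGES from the table of the time courses, the other sets from a separate table). JGES BMP4- stands highest at 16.4 for Hba-a1, and the order of BMP4- and BMP4+ in JGESO is the reverse of that in JGE and JGES.

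Across the bulk libraries, adult alpha-globin RNA was seen without beta-globin RNA. The sum of Hba-a1 and Hba-a2 reached 1 FPKM in 16 libraries, and in 13 of these every beta gene was listed at 0. At that limit the embryonic genes paired instead, since Hba-x reached 1 in 3 libraries and Hbb-bh1 was above 0 in all 3. Below it, Hbb-bh1 was at 0 where Hba-x was at 0.341 and 0.188 (SALL4-delN12 days 9 and 11) and 0.524 (JGES BMP4- day 5). In JGESO without BMP4 both were above 0. Over the 17 libraries of the time courses, Pearson's r of log2(FPKM + 1) was 0.977 between Hba-a1 and Hba-a2, 0.958 between Hba-x and Hbb-bh1 and 0.066 between Hba-a1 and Hba-x. These libraries share time courses and a common origin, Hbb-bh1 is above 0 in only 3 of them, and Hba-a1 and Hba-a2 share reads. The share of Hba-a2 in the adult alpha sum was 49.8% to 51.9% in SALL4-delN12 and 23.0% to 48.7% in JGES. It was the same, 37.3%, in SALL4-WT day 5 and JGES BMP4- day 3, and 38.3% in JGES BMP4- day 7 and JGES BMP4+ day 5.

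Other globin genes and the neighbors of the alpha cluster were read beside the 7. Hbq1a, the theta gene after Hba-a2, was at 0.280, 1.53, 4.83 and 2.15 FPKM on days 1, 5, 9 and 11 in SALL4-delN12 and at most 0.286 in SALL4-WT. Hbq1b, the theta gene after Hba-a1, was at 0.0810, 0.469, 2.57 and 0.539 in SALL4-delN12 and at most 0.220 in SALL4-WT. Both theta genes have their highest value on day 9 in SALL4-delN12, as Hba-a1 and Hba-a2 do. Cygb, which encodes the globin cytoglobin and is no part of either cluster, was at 1.81, 52.9, 102.3 and 28.7 with SALL4-delN12 and 0.247, 26.7, 19.9 and 16.2 with SALL4-WT. Nprl3, the housekeeping neighbor whose introns hold the alpha-globin enhancers, was nearly flat, between 8.54 and 9.98 in all 8 SALL4 libraries, and Mpg lay between 13.8 and 20.4. Rhbdf1, a neighbor on the far side of Mpg, was at 22.6, 25.5, 38.9 and 21.2 with SALL4-delN12 and at 16.5, 15.7, 17.7 and 17.5 with SALL4-WT, a difference of 1.09 on day 9 that passed the limit. Snrnp25, the next neighbor, was at 13.8, 13.7, 15.2 and 13.3 and at 17.2, 13.1, 7.83 and 7.74. On day 9 both were thus higher with SALL4-delN12, as the adult alpha genes were. Hbb-bh2 was listed at 0 throughout.

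The genes most like the mean log2(FPKM + 1) of the 7 hemoglobin genes over the 17 libraries, among the 12348 that reached 5 FPKM somewhere in these libraries, were Prps2 (r 0.854), Hs3st6 (0.791), Nkd2 (0.784), Edn3 (0.772), Exoc6b (0.771), Methig1 (0.750), Pgam2 (0.747), Tnn (0.741), Cartpt (0.737) and Col26a1 (0.736). That mean follows the adult alpha genes, which are the highest. Hs3st6, for example, was at 2.42, 13.4, 17.0 and 7.07 FPKM on days 1, 5, 9 and 11 in SALL4-delN12 and at 0.424, 0.485, 1.49 and 2.74 in SALL4-WT. Cygb was at rank 59 (r 0.633).

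The single-cell samples show which cells held the RNA in JGES day 7. The BMP4+ sample has 11335 cells with a median of 21205 UMIs (unique molecular identifiers, 1 per captured RNA molecule), and the BMP4- sample 8685 cells with a median of 12738. The samples share 2 barcodes. Cells carry the authors' labels, and values are summed UMIs scaled to all UMIs of the same cells (CPM) with 95% exact Poisson intervals, which cover counting error only, as do all intervals given.

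Most hemoglobin UMIs were in cells labelled Endothelial cells, in both samples. Without BMP4, the 507 Endothelial cells held 5724 of 6342 hemoglobin UMIs, 679.8 CPM (662.3 to 697.7). With BMP4, the 1453 Endothelial cells held 3186 of 4070, 91.2 CPM. The other labels were far lower. The Intermediate state was at 5.69 CPM without BMP4 and 4.09 with it, Pluripotent cells (BMP4- only) at 4.82, ParE at 3.42 in BMP4+ and Placenta-like cells (BMP4+ only) at 1.35. The 142 ParE cells of BMP4- held 2 UMIs. The label ParE is the authors' own, comes with no definition, and is used as written. The paper names a primitive endoderm-like cluster, and ParE is the only label that none of its other cluster names match.

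Among adult alpha genes, Hba-a1 in Endothelial cells was at 352.5 CPM (339.9 to 365.4) without BMP4 and 17.8 (16.4 to 19.3) with it. Hba-a2 was at 15.2 (12.7 to 18.1) and 0.687 (0.440 to 1.02). The embryonic Hba-x was closer, at 83.1 (77.1 to 89.5) and 38.9 (36.9 to 41.1). BMP4- is the higher sample for all 3. The UMIs gather in few cells, as the richest BMP4- cell held 391 of 2968 for Hba-a1 and 167 of 700 for Hba-x. These intervals are therefore too narrow to set the samples apart. Of the embryonic beta genes, Hbb-bh1 was at 185.9 (176.8 to 195.3) without and 24.2 (22.6 to 25.8) with BMP4, and Hbb-y at 42.8 (38.5 to 47.4) and 8.64 (7.70 to 9.68). Of the 360 Hbb-y UMIs without BMP4, 234 were in 1 cell, so that its interval, which covers counting error only, is too narrow. The adult beta genes were nearly absent, Hbb-bs with 2 UMIs without and 16 with BMP4, and Hbb-bt with 1 and 18. The beta-globin UMIs of these cells were thus almost all embryonic, 99.8% without and 97.1% with BMP4.

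The BMP4+ to BMP4- ratio in Endothelial cells was 0.0505 for Hba-a1, 0.0452 for Hba-a2, 0.130 for Hbb-bh1, 0.202 for Hbb-y and 0.468 for Hba-x. On log2(CPM + 1), 5 of 7 hemoglobin genes were lower by at least 1, where 4.81% of 12442 genes were, and 0 were higher, where 19.4% were. A few cells carry much of this, and the direction of Hbb-y rests on them. With the cell richest in the gene left out of each sample, a check added after seeing the data, 3 of 7 were lower by at least 1. Hbb-y was then at 15.0 CPM without BMP4 and 7.05 with it, a log2 difference of -0.99, and Hba-x at -0.95. Hba-a1, Hba-a2 and Hbb-bh1 kept differences of -4.19, -3.12 and -2.89. Leaving out in each sample the 1% of Endothelial cells with the most hemoglobin UMIs gives 399.0 CPM without BMP4 and 40.4 with it. Hbb-y then turned in direction, at 3.38 CPM without BMP4 and 6.47 with it, while 4 of 7 genes were lower by at least 1. Composition differed too, as Hba-x made up 18.4% (17.2 to 19.7) of alpha-like UMIs without BMP4 and 67.8% (65.7 to 69.8) with it. Without those top cells it made up 10.5% and 58.7%. These shares are too high if reads shared by Hba-a1 and Hba-a2 were dropped.

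**Figure D3:**
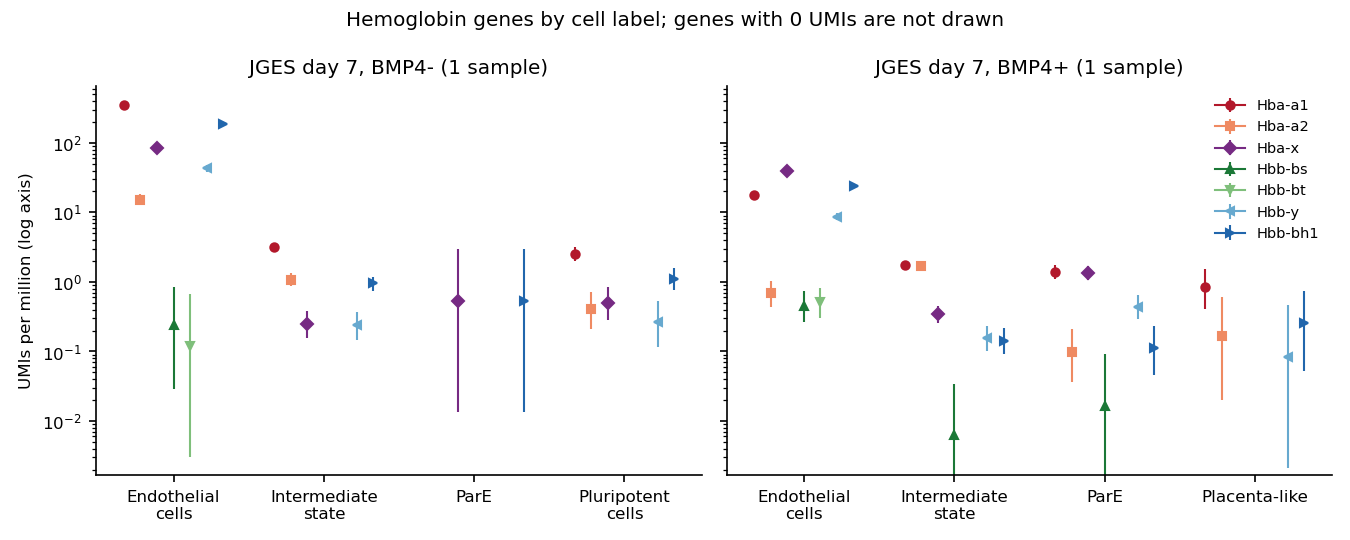
CPM of each hemoglobin gene by cell label in the 2 single-cell samples, on a log axis, with exact 95% Poisson intervals for counting error only. Endothelial cells lie highest in both samples, and in the BMP4- sample Hba-a1 stands at 352.5 and Hbb-bh1 at 185.9.

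Shares of cells with a hemoglobin UMI depend on depth and free RNA. Without BMP4, 27.8% of Endothelial cells (median 15083 UMIs) had at least 1 hemoglobin UMI, against 7.12% of Pluripotent cells (median 15444), a type that should lack the genes. The Intermediate state stood below that, at 5.57% (median 11892), so that its share alone does not tell expression from free RNA. With BMP4, 12.7% of Endothelial cells (median 21763) had 1, against 4.52% of the Intermediate state (19594), 3.12% of Placenta-like cells (28906) and 1.73% of ParE (23772.5). After each cell was thinned to 4000 UMIs, with no cell left out, the shares without BMP4 were 18.3% (Endothelial cells), 1.86% (Pluripotent cells) and 1.84% (Intermediate state), and with BMP4 6.81% (Endothelial cells), 1.11% (Intermediate state) and 0.379% (ParE).

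Cells with at least 10 hemoglobin UMIs per 10000 are called hemoglobin-rich below. They are a range of a continuous score and not a type, with 16 BMP4- and 24 BMP4+ Endothelial cells within 1.5-fold of the limit. In Endothelial cells they numbered 41 of 507 without BMP4 (8.09%, exact binomial interval 5.87 to 10.8) and 30 of 1453 with it (2.06%, 1.397 to 2.93). They held 93.6% and 71.3% of the hemoglobin UMIs of that label. Outside the label, 2 Intermediate state cells and 1 Pluripotent cell of BMP4- and 2 ParE cells of BMP4+ passed the limit. In the BMP4+ Intermediate state, 0 of 7125 cells passed, which allows a share of up to 0.0421%.

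Within a cell, the counted chains were often unbalanced, with alpha-like counts too low if reads shared by Hba-a1 and Hba-a2 were dropped. Of the 40 BMP4- Endothelial cells with at least 20 hemoglobin UMIs, 19 had at least 90% alpha-like UMIs, 6 had at most 10%, and 15 lay between. Of these, 14 had no beta-like UMI, 3 had no alpha-like UMI, and 18 had alpha-like UMIs without Hba-x. Of the 38 BMP4+ Endothelial cells, 17 had at least 90% alpha-like UMIs, 12 at most 10%, and 9 lay between, with 13 lacking beta-like and 8 lacking alpha-like UMIs. Only 3 of them had alpha-like UMIs without Hba-x.

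Single cells show these states. The cell with the most, in BMP4-, held 153 UMIs of Hba-a1, 167 of Hba-x, 97 of Hbb-y and 137 of Hbb-bh1 among 17882. A second BMP4- cell held 294 of Hba-a1 and 36 of Hba-a2 and none of the other 5 genes, among 14073. Another held 47 UMIs, all of Hbb-bh1, among 29400. The richest BMP4+ cell, with 334, held 141 of Hba-x and 62 of Hbb-bh1 beside 60 of Hba-a1. Cells with adult alpha genes alone, embryonic beta genes alone and both thus occur side by side.

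**Figure D4:**
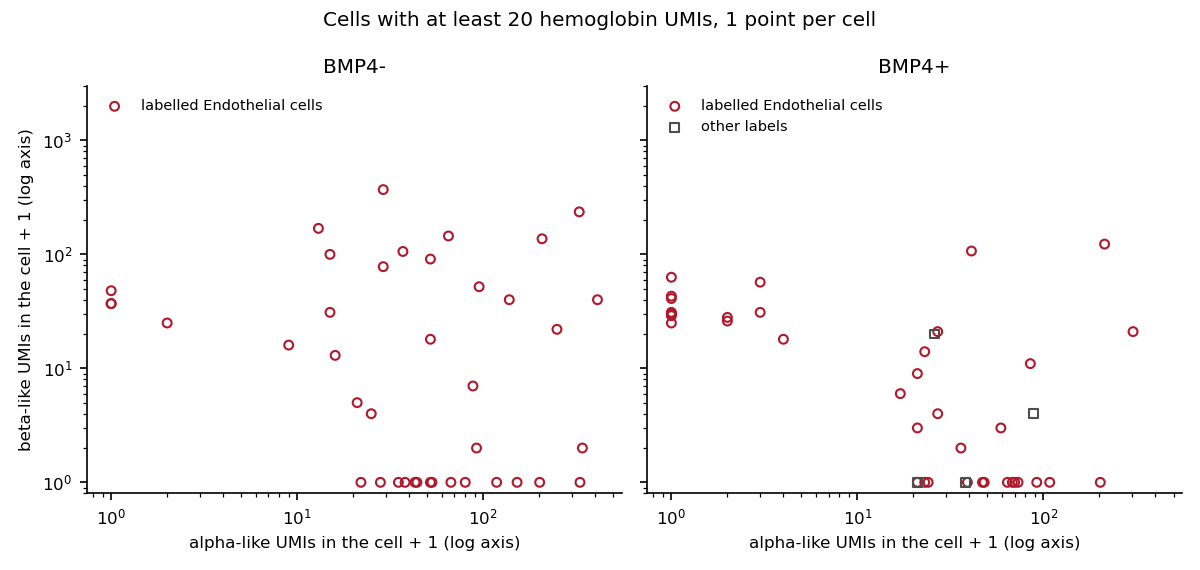
Each point is a cell with at least 20 hemoglobin UMIs, with its alpha-like UMIs (x) and beta-like UMIs (y), 1 added to each, both axes logarithmic, by sample and label. Points on the lower edge have no beta-like UMI (14 BMP4- and 13 BMP4+ Endothelial cells) and those on the left edge no alpha-like UMI (3 and 8).

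Genes also shared cells to different extents. Without BMP4, 95 Endothelial cells had a UMI of Hba-a1 and 30 of Hba-x, and 26 had both, 27.4% of the former and 86.7% of the latter. With BMP4, 70 and 65 cells had them and 47 had both, 67.1% and 72.3%. For Hba-x and Hbb-bh1 the cells with both were 17 (of 30 and 60) without BMP4 and 25 (of 65 and 97) with it.

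The hemoglobin-rich cells had red cell genes and lower endothelial markers than other cells of the Endothelial label. Against the other Endothelial cells, 7 of 14 erythroid transcription factors were higher by at least 1 on log2(CPM + 1) in each sample, where 4.83% of 12648 genes were in BMP4+ and 5.77% of 12678 in BMP4-. In the lower direction, 0 of these factors were past the limit in BMP4+ (16.4% of all genes) and 2 in BMP4- (19.3%). Klf1 was at 33.1 CPM in rich cells and 1.41 in the others with BMP4, and at 29.1 and 5.77 without. Gata1 was at 46.6 and 7.68 with BMP4 and at 44.3 and 15.9 without, and Gfi1b, a repressor of red cell and platelet precursors, at 192.7 and 23.7 and at 205.1 and 46.3. Lmo2, a bridging partner of TAL1, was lower without BMP4, at 50.6 against 196.1. The rich cells were somewhat deeper, with medians of 24103.5 against 21671 UMIs with BMP4 and 18453 against 14718 without.

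Of the 18 genes of heme synthesis and iron, 8 were higher and 1 lower with BMP4, and 6 and 3 without. Alas2 was at 122.7 against 12.8 CPM with BMP4 and at 163.3 against 13.4 without, and Fech, which puts iron into heme, at 98.2 against 24.3 and at 103.8 against 34.6. Tfrc, the transferrin receptor, was not higher, at 154.7 against 184.4 and at 30.4 against 63.4. Of the 19 listed membrane and other red cell products, 7 and 8 were higher and 0 lower. Slc4a1 (band 3) was at 23.3 CPM against 2.23 with BMP4, from 19 UMIs in rich cells, and had 1 UMI there without BMP4, and Hemgn had 0 UMIs in both samples.

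Endothelial markers went the other way, 6 of 8 being lower and 0 higher in both samples. Kdr, the VEGF receptor, was at 31.9 CPM in rich cells against 206.9 with BMP4 and at 38.0 against 152.2 without. Emcn was at 0 against 48.9 with BMP4. Against all other cells of the sample, 3 of the 8 were higher past the limit and 1 lower with BMP4, where 5.54% of 13455 genes were higher and 25.7% lower, and 4 higher and 0 lower without, where 6.38% of 13190 were higher and 23.9% lower. Cdh5 was at 70.1 against 27.3, Kdr at 29.4 in both and Emcn at 0 against 6.68 with BMP4, and Cdh5 was at 32.5 against 4.40, Kdr at 36.1 against 12.3 and Emcn at 1.203 against 1.65 without. Most of the 8 markers were thus lower in the rich cells than in other cells of the label. Of 10 macrophage markers, 2 were higher and 5 lower with BMP4 and 1 and 2 without. C1qa, C1qb and C1qc had 0 UMIs in rich cells of both samples. Tyrobp went the other way with BMP4, at 89.6 CPM in rich cells against 28.3 in the other Endothelial cells. Of 8 megakaryocyte markers, 1 was higher and 1 lower with BMP4, where 6 of the 8 had 0 UMIs in rich cells, and 3 were higher and 0 lower without. Pf4, a platelet chemokine, was at 1.23 CPM in rich cells (1 UMI) against 9.38 with BMP4 and at 3.797 (3 UMIs) against 0.917 without. Itga2b was at 46.6 against 16.7 with BMP4 and at 39.2 against 15.7 without.

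The genes with the largest CPM ratio between hemoglobin-rich cells and all other cells of a sample were, with BMP4, Csf2rb2 (65.4-fold), Klf1 (64.0), Alas2 (58.8), Gfi1b (54.9), Matn1 (45.8), Gata1 (38.5), Csf2rb (38.3), Cebpe (32.6), Treml2 (31.0) and Tspan32 (29.7). Without BMP4 they were Alas2 (156.9-fold), Csf2rb2 (73.6), Hdc (71.97), Svs5 (64.4), Gfi1b (58.9), Nrip3 (56.8), Csf2rb (40.2), Rac2 (39.9), Ncf4 (33.5) and Gata1 (31.6). Both lists hold Alas2, Gfi1b, Gata1, Csf2rb2 and Csf2rb, the last pair being beta subunits of cytokine receptors of blood cells, Csf2rb the common one and Csf2rb2 that of the IL-3 receptor. The lists also hold Hdc, an enzyme of mast cells and basophils, and Cebpe, a factor of granulocytes. Some of these rest on few cells, as Csf2rb2 had a UMI in 5 and Cebpe in 4 of the 32 rich cells with BMP4, and Hdc in 6 and Svs5 in 9 of the 44 without. Most rich cells have the Endothelial label, and against the other cells of that label the folds are smaller. With BMP4 they were 23.6 for Klf1, 11.3 for Csf2rb2, 9.56 for Alas2 and 8.15 for Gfi1b, and without BMP4 12.2 for Alas2, 11.8 for Hdc, 5.60 for Csf2rb2 and 4.85 for Svs5.

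The deposited counts split differently between the adult alpha genes in the Intermediate state, a split that is uncertain for copies this alike, so that the intervals here cover less than the whole error. Hba-a2 made up 48.6% (44.3 to 52.8) of the adult alpha UMIs there with BMP4 and 25.5% (21.0 to 30.4) without, against 3.72% (2.39 to 5.48) and 4.13% (3.46 to 4.90) in Endothelial cells. With BMP4 it was 48.9% when the top 1% of cells were left out. Within a sample, the cells of all labels were counted in the same way. In BMP4+, 44 of 7125 Intermediate state cells had at least 3 adult alpha UMIs and none of these had a beta-like UMI, where 32 of the 7125 had one. They held 150 UMIs of Hba-a1, 131 of Hba-a2 and 38 of Hba-x, with 4 of Alas2 and 0 of Gata1. In BMP4-, 18 of 6211 cells were of this kind, again none with a beta-like UMI, where 95 of the 6211 had one, with 76 UMIs of Hba-a1, 43 of Hba-a2, 0 of Hba-x, 1 of Alas2 and 0 of Gata1. Their highest count was 19 adult alpha UMIs in a cell, in both samples. The theta genes were low, Hbq1a at 0.195 CPM (24 UMIs) and Hbq1b at 0.0893 CPM (11 UMIs) over all BMP4- cells, with at most 1 UMI in a cell.

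Bulk and single-cell values of JGES day 7 differed for several genes. Without BMP4, beta-like genes made up 32.6% of the hemoglobin UMIs over all cells, while all 4 were listed at 0 FPKM in bulk. With BMP4, Hba-a1 and Hba-a2 held 1003 and 301 UMIs over all cells, while both were listed at 0 in bulk. The bulk libraries and the Endothelial cells put the adult alpha genes higher without BMP4. In the Intermediate state their sum was at 4.24 CPM without (353 UMIs) and 3.44 with BMP4 (554 UMIs), a small difference in the same direction. The uncertain split between the copies gave Hba-a1 3.16 CPM without and 1.77 with BMP4, and Hba-a2 1.08 without and 1.67 with it. For the embryonic genes, bulk Hba-x and Hbb-bh1 were above 0 with BMP4 only, while over all single cells Hba-x was at 5.56 CPM with and 5.98 without BMP4 and Hbb-bh1 at 3.26 with and 13.6 without. The labels do not say that the same cultures were used, and the cause was not tested.

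None of the 7 promoters had a deposited peak in cells with SALL4 alone or in MEFs. Within 2 kb of the transcription start, 0 of 7 hemoglobin genes had an ATAC-seq peak in any of 9 libraries, where 71.4% of 21951 protein-coding genes did, and 0 of 7 had a SALL4 or H3K27ac Cut&Tag peak in any of 4 libraries, where 63.1% did. This includes SALL4-delN12 on days 5, 9 and 11, the days of its highest adult alpha RNA. Within 5 kb, Hba-a1 had a peak in 2 ATAC-seq libraries and Hba-a2 in 3, and these lie at Hbq1b and Hbq1a. A peak list shows only what passed the authors' threshold. The authors also removed reads of low mapping quality, and the aligned promoter bases of Hba-a1 and Hba-a2 are 100% identical. Reads that fit both copies may thus be missing, so a lack of peaks there does not show closed promoters. For these copies the shares of protein-coding genes are not a like measure.

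The surrounding clusters did have peaks. A site here is a stretch of overlapping or adjoining peaks merged over libraries, placed by its middle and scored by a library's highest peak in it. The site with peaks in all 9 ATAC-seq and all 4 Cut&Tag libraries lies in an intron of Nprl3, at -25.05 kb from the start of Hba-x. Its ATAC-seq peak had a MACS score (higher for a lower p-value) of 193.6 in MEFs, of 555.4, 475.1, 398.2 and 201.1 with SALL4-WT on days 1, 5, 9 and 11, and of 178.0, 135.9, 174.6 and 59.5 with SALL4-delN12. Scores also grow with depth, so each is given with its rank within its list, which depends in turn on how many peaks were called. On day 1 the peak was above 94.99% of peaks with SALL4-WT and 70.8% with SALL4-delN12, and on day 5 above 88.0% and 64.9%. On day 9 it was above 88.0% and 67.4%, on day 11 above 71.3% and 11.3%, and in MEFs above 63.1%. The lists hold 83821 and 94828 peaks on day 1, 98422 and 89524 on day 5, and 95940 and 94072 on day 9. Those of day 11 hold 89245 and 78517, and that of MEFs 125470. SALL4 Cut&Tag on day 6 gave 481.7 with SALL4-WT, above 98.9996% of that library's peaks, and 54.7 with SALL4-delN12, above 5.34%. H3K27ac, a mark of active enhancers and promoters, was at 78.3 (above 31.0%) with SALL4-WT and 277.2 (above 76.8%) with SALL4-delN12. The H3K27ac lists differ in length, with 19841 peaks for SALL4-WT and 45599 for SALL4-delN12, so their scores and ranks are not on 1 scale and no order is read from them here or at the other sites, while the SALL4 lists hold 69475 and 67310.

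A second site, merged over 5811 bases with its middle at -12.75 kb from the start of Hba-x, overlaps a Nprl3 exon. Its highest SALL4 scores were alike, 224.2 with SALL4-WT (above 83.2%) and 216.5 with SALL4-delN12 (above 75.8%). The peaks behind these scores may lie at different places in the site. H3K27ac was there at 108.5 (above 48.9%) with SALL4-WT and 63.8 (above 13.4%) with SALL4-delN12. At the Nprl3 start, at -8.783 kb, H3K27ac was at 165.6 (above 68.9%) and 151.9 (above 53.9%). SALL4 had a peak there with SALL4-WT only, at 55.5 (above 7.44%). A site between genes at 44.62 kb also had a SALL4 peak with SALL4-WT only, at 150.3 (above 66.0%). Its H3K27ac peak was with SALL4-delN12 only, at 84.5 (above 27.6%). Next to the beta cluster, the 1 site found lies between genes, at -7.911 kb from the start of Hbb-y, with peaks in all 9 ATAC-seq libraries and 3 of 4 Cut&Tag libraries. SALL4 scored 94.4 there with SALL4-WT (above 40.9%) and 110.9 with SALL4-delN12 (above 43.6%). H3K27ac scored 125.4 with SALL4-delN12 (above 45.8%) and had no peak with SALL4-WT.

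Bases are printed for the Nprl3 intron site (chr11:32251039-32251139, mm10, plus strand) and for the site near Hbb-y (chr7:103861013-103861120, mm10, plus strand). The first has a peak in all 13 libraries and the second is the only site found beside the beta cluster. The bases lie within the outer span of the peaks of every library with a peak at the site. Such a span can hold gaps where a library has several peaks. Capitals mark the GATA core GATAA, the CACCC box and the AP-1 letters TGACTCA on either strand. On the other strand the CACCC box reads GGGTG.
Nprl3 intron site: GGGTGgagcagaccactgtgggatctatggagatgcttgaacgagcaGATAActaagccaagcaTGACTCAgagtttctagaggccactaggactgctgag
Site near Hbb-y: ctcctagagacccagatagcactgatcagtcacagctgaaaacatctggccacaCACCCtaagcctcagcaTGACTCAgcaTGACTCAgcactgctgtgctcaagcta

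The Nprl3 intron site holds GATAA (in 8.67% of 125454 MEF peak windows of 101 bases), CACCC (23.8%) and TGACTCA (15.0%), 1 time each. The site near Hbb-y holds CACCC (25.2% of windows of 108 bases) and TGACTCA 2 times (15.7% hold it at all), and no GATAA (9.32%). AATATT, searched as a core of AT-rich letters, is in neither (2.205% and 2.36%).

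**Figure D5:**
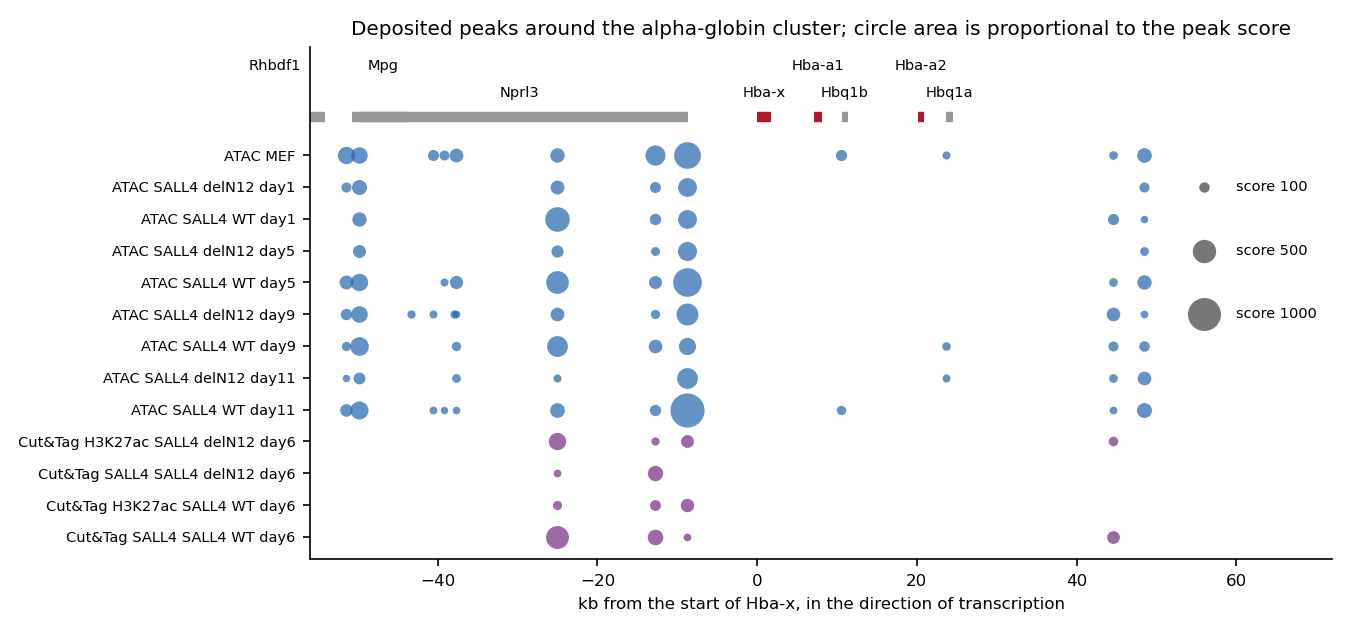
Deposited peaks around the alpha-globin cluster by distance from the start of Hba-x in kb, 1 row per library, circle area proportional to the highest peak score, with gene bodies above (hemoglobin genes in red). All 13 libraries have a peak in the site with its middle at -25.05 kb, in Nprl3, and none has one at Hba-x, Hba-a1 or Hba-a2.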

How the data were processed

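Members and gene lists were chosen with earlier results of these data known. Bulk reads were trimmed with Trim Galore 0.6.4 by the authors, who mapped them to mm10 with HISAT2 2.2.1 and deposited FPKM from StringTie 2.2.1. The JGES day 7 libraries are in both tables, the second copies 0.975 and 0.978 times the first, so the first was used. The scRNA-seq count table, UMI counts with cell labels, was deposited by the authors after STARsolo and Scanpy. The extract protocol given for those samples describes total RNA. Its 10749 columns of no sample here were not used. Per the file headers and labels, ATAC-seq and Cut&Tag files are MACS 1.4.2 peak lists on mm10, mapped with Bowtie2 2.4.5, and the authors' peak score was used as deposited. Cut&Tag replicates were merged by the authors before calling.

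Differences are of log2(FPKM + 1), pseudocount 1, or log2(CPM + 1). Past the limit means at least 1 on that scale. No test was run, since each condition has 1 sample. Counts summed over cells carry exact Poisson intervals, shares Clopper-Pearson intervals at 95%. A share of 0 allows up to 3 counts of the total. No doublet caller was run. The authors describe filters on UMIs and counts only. Promoter windows used GENCODE vM21 starts, and printed sequences RefSeq GRCm38.p6. Named genes were all 7 members, other globins, cluster neighbors, the fixed lists, the 10 genes most like the members' mean in bulk, and the 10 with the largest ratio in hemoglobin-rich cells (a UMI in at least 10% of them and at least 20 UMIs). Scripts were tested on simulated data. Tools were Python 3.11.15, numpy 2.4.6, pandas 2.3.3, scipy 1.17.1, biopython 1.88, pyfaidx 0.9.0.4 and matplotlib 3.10.9. Alternatives were another pseudocount, scaling, the second JGES day 7 copy, Spearman's rho, cells left out, thinning, other limits and other peak windows.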

Additional observations from a re-analysis of the deposited data

Results flagged for a closer look

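On day 7 the BMP4 difference of the adult alpha genes had opposite signs between factor sets. On the log2(FPKM + 1) scale, Hba-a1 was at -4.12 in JGES, -2.43 in JGE and 2.48 in JGESO, and Hba-a2 at -3.48, -2.65 and 2.32. Each value compares 1 library with 1 library, and the difference between factor sets was not tested.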

How the results depend on the processing

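No paired analysis, such as by day or factor set, was run. Every condition has 1 sample, and the only replicate number in the labels is the 1 that both single-cell samples carry. Over 151 results and 279 alternatives, 1 turned in direction, the log2 difference of Hbb-y between BMP4+ and BMP4- Endothelial cells, which was -2.18 with all cells and 0.77 without the 1% of cells with the most member UMIs. With the cell richest in each gene left out of both samples, 3 rather than 5 members were lower past the limit. Both were chosen after seeing the data, and the cause was not tested. In a separate tally of 34 single-gene differences under 72 alternatives, which does not hold that turn of Hbb-y, 21 moved and 0 changed sign. With a pseudocount of 0.1, under which a gene below 1 FPKM can also pass the limit, the count of hemoglobin genes lower past the limit went from 0 to 1 in JGES day 1, to 2 in JGES day 5, to 1 in JGESO, to 2 in SALL4-delN12 on day 1 and to 2 on day 9, and the count higher from 0 to 1 in JGEO. Spearman's rho kept 6 of the 10 genes most like the members. Summed CPM without the top 1% of cells was 40.4 (Endothelial cells) and 1.69 (Intermediate state) with BMP4, and 399.0 and 3.45 without. Endothelial cells were at 82.1 and 626.4 without the deepest 5% of cells, and at 81.7 and 614.4 without the single top cell, with and without BMP4, the latter chosen after seeing the data. With at least 3 UMIs the share of cells was 7.78% and 0.646% (Endothelial cells, Intermediate state, BMP4+) and 15.0% and 0.338% (BMP4-). After thinning it was 6.81%, 1.11%, 18.3% and 1.84%. With a limit of 5 per 10000, hemoglobin-rich cells were 3.37% and 11.05% of Endothelial cells with and without BMP4 and 0.0982% of the BMP4+ Intermediate state. With 50 they were 0.344% and 3.35%, and 0 in the BMP4- Intermediate state. Without the top 1%, Hba-x was 58.7% and 10.5% of alpha-like UMIs in Endothelial cells with and without BMP4. Within 5 kb, 2 hemoglobin genes had an ATAC-seq peak. FPKM depth is unknown, so low bulk values cannot be told from 0.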
